A study of Schizosaccharomyces pombe with 6 samples.

Results

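The genes described here are the 76 fission yeast (Schizosaccharomyces pombe) genes for proteins of the large subunit of the cytosolic ribosome, out of 6986 genes in the deposited count table. They were chosen by name: the common name in the authors' deposited table begins with rpl and a number, and non-coding RNAs, antisense RNAs and mitochondrial proteins were left out. Polyadenylated RNA was sequenced from log-phase cultures grown in YES, a rich medium, at 30 °C. The groups are 3 libraries of a wild-type strain (WT, JS 77) and 3 libraries of a duf89 deletion strain (AS2300, h- with the gene replaced by the hygromycin resistance marker hygR). Duf89 belongs to a family of metal-dependent phosphatases. The WT libraries belong to an earlier deposit, and any difference in how the strains' RNA was prepared cannot be told apart from the deletion. The deletion replicates are called biological and the WT replicates only carry numbers, so the p-values may measure a spread that is technical in WT.

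The large subunit holds the peptidyl transferase centre, which joins amino acids, and the tunnel through which the new chain leaves. Its protein genes are among the most strongly transcribed in a growing yeast cell, and many are present as a pair of copies with nearly the same product. In fission yeast many of their promoters carry a HomolD box, which takes the place of a TATA box, and some carry a HomolE box.

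Library totals lay between 18244492 and 21572536 counts, and the members' counts lay between 606 and 82806 in every library. The targeted gene duf89 (SPCC1393.13) had 808, 897 and 794 counts in WT and 229, 234 and 373 in the deletion, so all deletion libraries were lower but not at 0. The replaced part of the locus is not stated in the labels. All 76 members passed the filter on low counts, and RefSeq identifiers were matched for 76 of them. In the RefSeq annotation 57 members overlap a feature on the opposite strand and 3 one on the same strand, and the strand setting of the counting is not given, so reads of such partners cannot be told apart. Some of these and others, 6 members in all, share at least 10% of their 50-base stretches with other places in the genome: rpl1201, rpl1202, rpl301, rpl302, rpl1001 and rpl1002. Their values are uncertain because the treatment of reads with several matches is not given either.

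Messenger RNA of the large subunit genes was slightly lower in the deletion. By edgeR's quasi-likelihood test, 52 of the 76 members were lower at an adjusted p below 0.05, none was higher and 24 did not pass. Over all 6045 genes tested 24.6% were called lower and 28.8% higher. The median log2 fold change of the members was -0.15, against 0.00 over all tested genes, and the median member stood at 89.9% of its WT level. Changes ran from -0.36 for rpl1201 to 0.12 for rpl302, which did not pass, and no member changed by 1.5-fold with this scaling. With cyclic loess, another scaling, rpl1201 was the 1 member past that size, at -0.62 (1.54-fold lower). For 59 members the CPM values (counts scaled to library size with TMM factors) of all 3 deletion libraries lay below all 3 WT libraries, a pattern seen in 30.4% of tested genes. For the other 17 the groups overlapped, and for no member did all deletion libraries lie above WT. Together the members took 8.82%, 9.10% and 9.07% of all counts in the WT libraries and 8.37%, 8.29% and 8.51% in the deletion libraries. This share depends on no scaling factor, though it does move with all other genes.

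**Figure D1:**
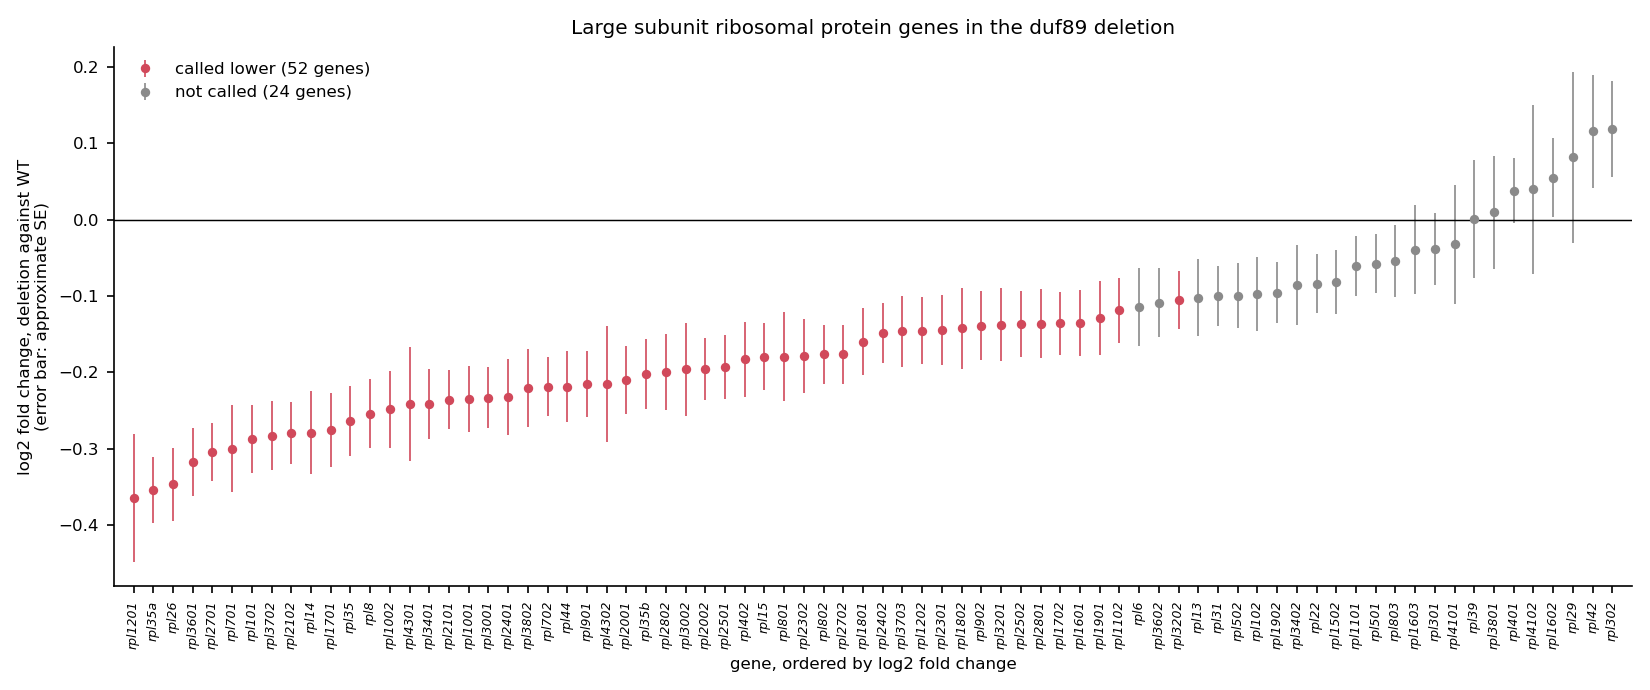
Log2 fold change of each of the 76 large subunit genes, deletion against WT (points), with the approximate SE (bars), ordered by value; red marks genes called lower by edgeR and grey those not called. The points run from -0.36 to 0.12, and 68 of the 76 lie below 0.

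The count of lower members depends on how the libraries are scaled. With library totals alone 32 members were lower and 2 higher (median -0.09), where 17.4% and 34.3% of all tested genes were called lower and higher. With offsets for GC content 35 were lower and 4 higher (median -0.10), against 29.2% and 26.2% of all tested genes. With cyclic loess, which removes any trend with abundance, 11 were lower and 8 higher, where 23.9% and 21.8% of all tested genes were called lower and higher, and the members' median was 0.00. The members themselves contribute to the loess curve. The members are abundant: 67 of them fall in the eighth of tested genes with the most counts. The 688 other genes of that eighth had a median of -0.16 with 56.5% called lower. Of all 76 members, some of them outside that eighth, 68.4% were called lower. The members' values were thus near those of other abundant genes, and 10 members were lower under all 6 scalings: rpl101, rpl1201, rpl1701, rpl2102, rpl26, rpl2701, rpl35a, rpl3601, rpl3702 and rpl701. Leaving out WT replicate 2 or deletion replicate 2 gave 32 lower members each, while the share of all tested genes called lower was 17.7% and 18.2%.

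**Figure D2:**
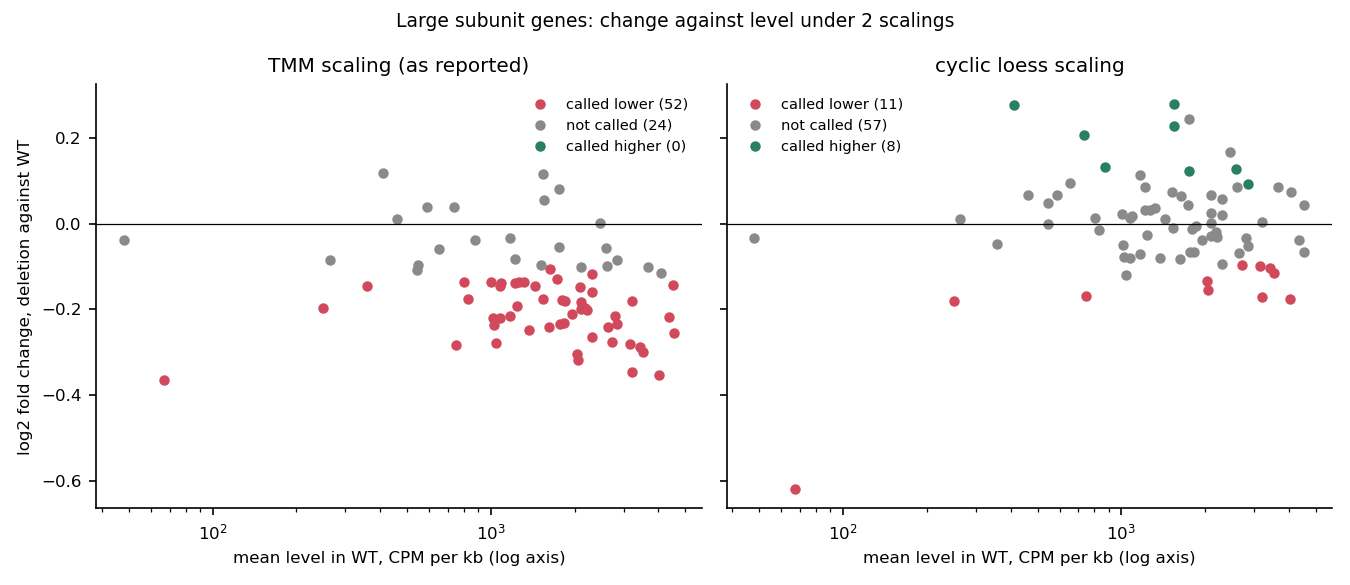
Log2 fold change (vertical axis) against the mean WT level in CPM per kb of transcript (horizontal axis, log scale) for the 76 genes, with TMM scaling on the left and cyclic loess on the right. With TMM scaling 52 genes are called lower, whereas with cyclic loess 11 are lower and 8 higher around a median of 0.00.

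Counts by structural site, here and below, stand beside 68.4% of all 76 members and 24.6% of all tested genes called lower. With cyclic loess 14.5% of the members were lower and 10.5% higher, against 23.9% and 21.8% of all tested genes. No site was tested against the other members. Among the proteins that line the exit tunnel or sit at its opening, 7 of 10 members were lower and none was higher (median -0.16). With cyclic loess 2 of them were lower and 1 higher. The gene rpl26 (SPBC29B5.03c, uL24), a single-copy gene for a protein at the tunnel opening, measured 1412, 1493 and 1496 CPM in WT and 1197, 1173 and 1092 CPM in the deletion. All deletion libraries were lower than all WT libraries. It fell to 78.7% of WT (log2 fold change -0.35, SE 0.05, adjusted p = 5.4e-04), and it was also lower with cyclic loess (-0.17). The neighbouring protein gene rpl35 (SPCC613.05c, uL29) measured 1041, 1085 and 1111 CPM in WT and 938, 866 and 894 CPM in the deletion, again without overlap. It fell by 0.26 on the log2 scale (SE 0.05, adjusted p = 0.0016), but with cyclic loess it did not pass (-0.09). In RefSeq the non-coding RNA SPNCRNA.1103 overlaps rpl35 on the same strand. The copies rpl1701 and rpl1702 encode uL22, which reaches into the tunnel wall, and fell by 0.28 and 0.14. The tunnel protein genes rpl39 (0.00, SE 0.08) and rpl31 (-0.10, SE 0.04) did not pass.

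Around the peptidyl transferase centre 4 of 7 members were lower and none was higher (median -0.18), but with cyclic loess none was lower and 3 were higher. Both copies of the uL16 gene passed, with rpl1001 at -0.23 (SE 0.04) and rpl1002 at -0.25 (SE 0.05), although these copies share sequence. Of the 3 copies of the uL2 gene, which encode the same protein, rpl801 fell by 0.18 and rpl802 fell by 0.18. The third, rpl803, measured 1610, 1636 and 1673 CPM in WT and 1672, 1557 and 1509 CPM in the deletion. Its groups overlapped, and the value of -0.05 (SE 0.05, adjusted p = 0.35) did not pass. Both copies of the uL3 gene failed to pass: rpl301 stood at -0.04 (SE 0.05) and rpl302 at 0.12 (SE 0.06). With cyclic loess rpl301 (0.13), rpl302 (0.28) and rpl803 (0.12) were called higher.

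Of the 3 members at the tRNA exit site rpl101 (SPCC1183.08c), one of a pair of uL1 genes, was lower, also with cyclic loess (-0.10). It measured 2550, 2783 and 2737 CPM in WT and 2244, 2197 and 2172 CPM in the deletion, and the groups did not overlap. It fell to 81.9% of WT (log2 fold change -0.29, SE 0.05, adjusted p = 9.9e-04). The gene rpl42, whose protein eL42 lies at the exit site and is the known place of cycloheximide resistance changes in yeasts, had an overlapping range of 597 to 697 CPM in WT and 671 to 787 CPM in the deletion (0.12, SE 0.07, adjusted p = 0.21), and was called higher with cyclic loess (0.28). At the base of the acidic stalk, where elongation factors bind, the uL11 copies rpl1201 and rpl1202 fell by 0.36 and 0.15, with loess values of -0.62 for rpl1201 and of -0.05 for rpl1202, which did not pass. Of the 4 genes of the 5S RNA particle, rpl1102 fell by 0.12 (SE 0.04, adjusted p = 0.038), while rpl1101 (-0.06), rpl501 (-0.06) and rpl502 (-0.10) did not pass. Under cyclic loess none of these 4 was lower and rpl501 was higher (0.13).

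Proteins that form bridges to the small subunit gave 5 lower members of 8, namely rpl1901, rpl2301, rpl2302, rpl2401 and rpl2402, with none called in either direction under cyclic loess. The strongest of them was rpl2401 (eL24), which went from 967.7 ± 43.6 to 823.7 ± 36.1 CPM (SD, n = 3 each; -0.23, SE 0.05). The pair rpl4101 (-0.03, SE 0.08) and rpl4102 (0.04, SE 0.11), for the very small protein eL41 of 25 residues, did not pass.

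The remaining 42 members have other positions or roles, and 32 of them were lower (median -0.20), with 7 lower and 2 higher under cyclic loess. The smallest adjusted p of all members belonged to rpl35a (SPCP31B10.08c, eL33). Its libraries read 1582, 1657 and 1676 CPM in WT and 1278, 1242 and 1325 CPM in the deletion, which is 78.2% of WT (log2 fold change -0.35, SE 0.04, adjusted p = 3.2e-04). The groups were separated by more than the spread within either of them.

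The gene rpl2701 (SPBC685.07c, eL27) read 1135, 1183 and 1156 CPM in WT and 941, 935 and 938 CPM in the deletion (-0.30, SE 0.04, adjusted p = 3.5e-04). The gene rpl3601 (SPCC970.05, eL36) read 755, 802 and 780 CPM in WT and 601, 630 and 645 CPM in the deletion (-0.32, SE 0.04, adjusted p = 5.8e-04). Neither gene overlapped between groups, and both stayed lower with cyclic loess (-0.13 and -0.15). The copies rpl2102 and rpl2101, for eL21, fell together by 0.28 and 0.24 (SE 0.04 each), as did rpl3702 (-0.28, SE 0.05), for the zinc-binding protein eL37. The gene rpl3001, for eL30, measured -0.23 (SE 0.04). Of these, rpl2101 (-0.08) and rpl3001 (-0.07) did not pass with cyclic loess. The largest counts among the genes lower under all scalings were those of rpl701, at 58373, 66800 and 64081 in WT and 63604, 55237 and 53261 in the deletion (-0.30, SE 0.06, adjusted p = 0.0023). The deposited annotation names its product as an RNase MRP subunit that resembles L7. A snoRNA, snoR39b, overlaps rpl701 on the same strand in RefSeq.

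**Figure D3:**
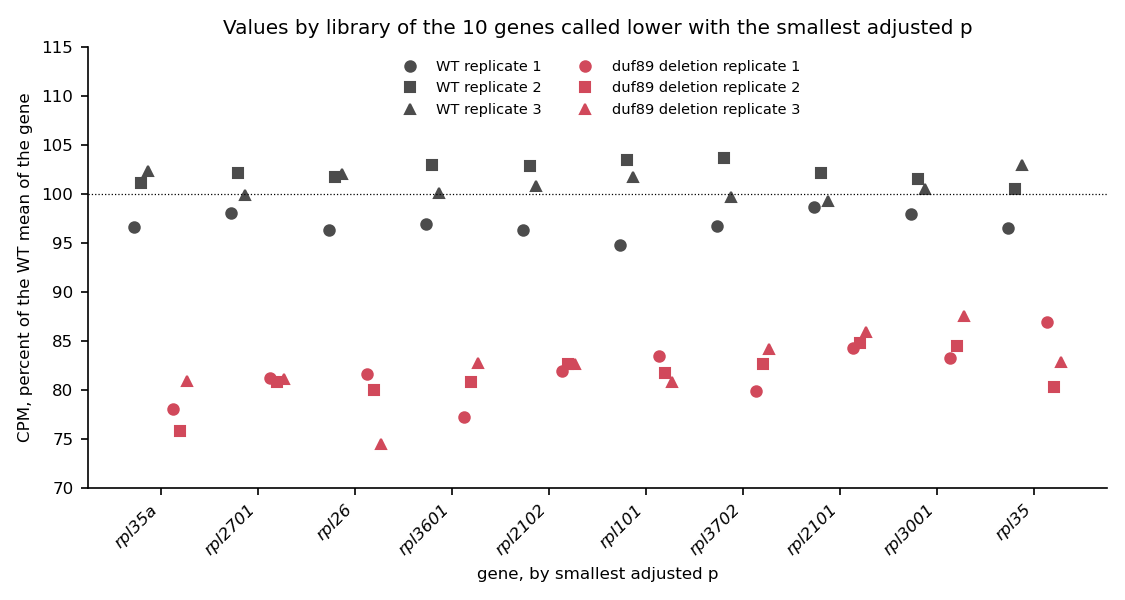
CPM of each library as a percentage of the gene's WT mean (vertical axis) for the 10 genes called lower with the smallest adjusted p; grey marks WT, red the deletion, and the symbol gives the replicate. In all 10 genes every red point lies below every grey point.

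Levels per kb of transcript in WT spanned 95.0-fold among the members, though the lowest levels, those of rpl1603 and rpl1201, are uncertain. The median member stood at 1683 CPM per kb, against 40.7 over 4959 tested protein-coding genes, and all 76 members lay above the latter median. Of the 100 highest protein-coding genes 38 were members. The highest level was that of rpl8 (SPBC29A3.04), for eL8, which assembles early into the large subunit, at 4556 ± 205 CPM per kb in WT and 3821 ± 87 in the deletion (SD, n = 3 each). It was followed by rpl1802, for eL18, at 4524 ± 329 in WT and by rpl44 at 4371 ± 200, and these 3 levels do not differ beyond their spread. Changes of rpl8 (-0.25, SE 0.04) and rpl44 (-0.22, SE 0.05) passed, and so did that of rpl1802 (-0.14, SE 0.05, adjusted p = 0.046), although it missed the threshold under 12 of 18 alternative settings. With cyclic loess none of these 3 genes passed, and rpl1802 stood at 0.04.

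The lowest level was that of rpl1603 (SPBC2G2.05), the least expressed copy of the uL13 gene, at 47.9 ± 1.6 CPM per kb in WT and 46.7 ± 3.1 in the deletion. Its annotated transcript is 2640 bases long and overlaps apl1 on the opposite strand, so its level per kb is uncertain. The gene rpl1201 stood at 66.9 ± 5.7 in WT, and 85.1% of its 50-base stretches occur elsewhere in the genome. Next above came rpl3002, the minor copy for eL30, at 249.3 ± 10.1 in WT. It measured 139, 146 and 135 CPM in WT and 114, 121 and 132 CPM in the deletion. The groups were close without overlapping, and the change of -0.20 (SE 0.06, adjusted p = 0.022) was called. Across members the log2 fold change and the WT level per kb had a Spearman rho of -0.34 (76 genes that share the same 6 libraries), so the members with more RNA had on the whole the lower values.

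The members form 43 families, of which 12 hold 1 gene, 29 hold 2 and 2 hold 3, which gives 35 pairs of copies. Proteins of a pair were 78.6% to 100% identical (median 97.0%), and in 8 pairs they were the same. In WT one copy had a median of 2.07 times the level per kb of the other, and up to 32.3 times for rpl1602 over rpl1603. The last value rests on the annotated length of rpl1603, 2640 bases, and is uncertain. By counts this ratio was 9.1, 9.8 and 8.4 in the WT libraries. In 19 pairs both copies were lower in the deletion, in 12 pairs 1 copy was, and in 4 pairs neither was. The ratio of the counts of 2 copies within a library does not depend on a factor that scales the whole library. Cyclic loess and GC offsets differ between genes, would change such ratios and were not applied to them. In 14 of the 35 pairs (40%) the 3 deletion ratios lay wholly above or below the 3 WT ratios. Among 2815 pairs of members of different families this held for 40.9%, so copies of a gene shifted against each other about as often as unrelated members did. The median size of the shift was 0.08 for copies and 0.10 for members of different families, on the log2 scale, and the largest among copies was 0.23. With 3 libraries against 3 the two-sided exact permutation test cannot go below p = 0.10, which all 14 pairs reached, and the p-values are not adjusted.

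**Figure D4:**
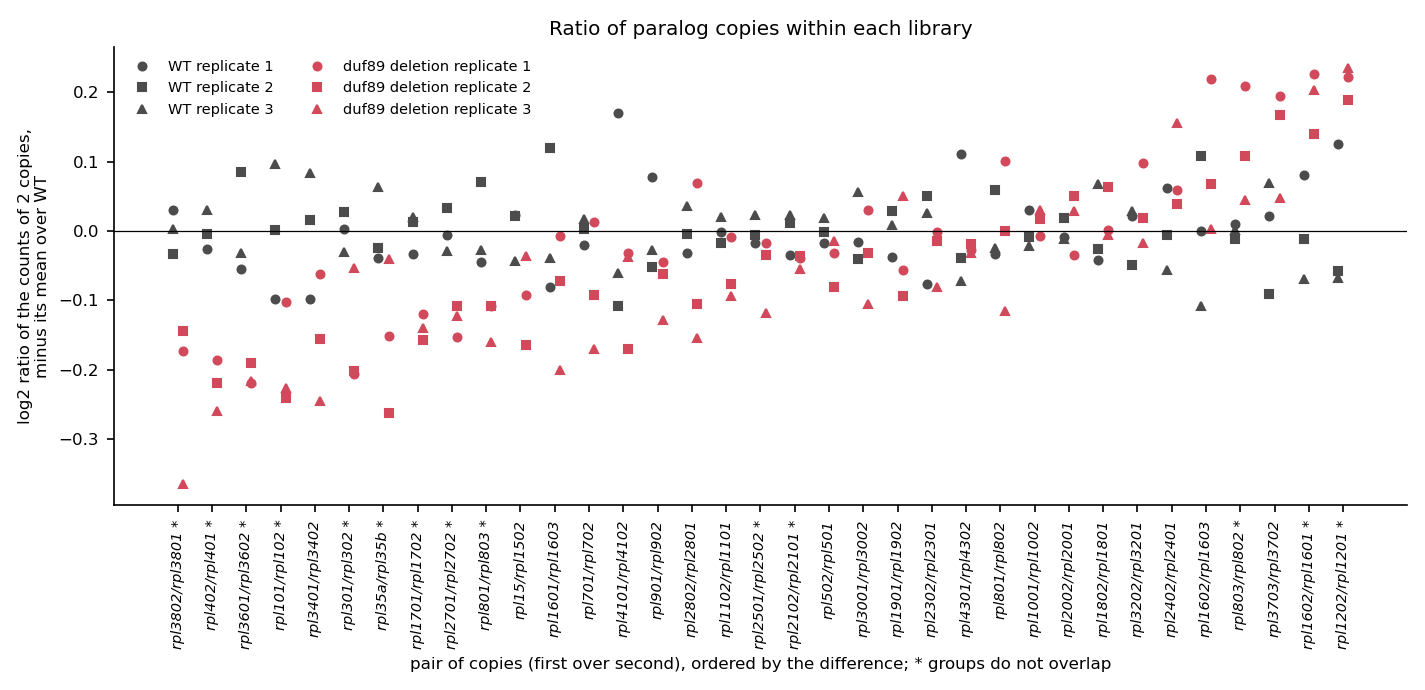
Log2 ratio of the counts of 2 copies in each library, minus its mean over the 3 WT libraries, for all 35 pairs; grey marks WT, red the deletion, and the symbol gives the replicate. The 14 pairs with a star have groups that do not overlap, and the shifts of the group mean stay within 0.23 of 0.

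The widest shift was in the pair for eL38. The gene rpl3802 (SPAC30D11.12) had 6968, 7981 and 8157 counts in WT and 7364, 7357 and 7455 in the deletion, and rpl3801 (SPBC577.02) had 2737, 3274 and 3263 in WT and 3327, 3260 and 3849 in the deletion. The ratio was 2.55, 2.44 and 2.50 in WT and 2.21, 2.26 and 1.94 in the deletion. It fell by 0.23 on the log2 scale, with deletion replicate 3 the lowest library. Only rpl3802 was called lower (-0.22, SE 0.05), with rpl3801 at 0.01 (SE 0.07).

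The pair for uL4, which reaches into the exit tunnel, shifted by a similar amount, 0.22. Counts of rpl402 (SPBP8B7.03c) were 43604, 50824 and 48296 in WT and 50739, 44998 and 44988 in the deletion, and those of rpl401 (SPBC1711.06) were 16462, 18917 and 17541 in WT and 21403, 19417 and 19977 in the deletion. The ratio was 2.65, 2.69 and 2.75 in WT and 2.37, 2.32 and 2.25 in the deletion, so every deletion library was below every WT library. The share of rpl402 in the pair's counts went from 72.9% to 69.8%. By itself rpl402 fell (-0.18, SE 0.05, adjusted p = 0.012) and rpl401 did not pass (0.04, SE 0.04), and with cyclic loess rpl401 was higher (0.21) and rpl402 stood at 0.00.

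The uL1 pair moved the same way. The gene rpl102 (SPBC30D10.18c) had 7850, 8588 and 7702 counts in WT and 8308, 8419 and 8513 in the deletion, and its change of -0.10 (SE 0.05, adjusted p = 0.12) did not pass beside the fall of rpl101. The ratio of rpl101 to rpl102 was 5.87, 6.29 and 6.72 in WT and 5.86, 5.32 and 5.37 in the deletion. The highest deletion library nearly touched the lowest WT library. In the eL33 pair both copies fell, rpl35a more than rpl35b (-0.20, SE 0.05), with ratios of 1.36, 1.38 and 1.46 in WT and 1.26, 1.17 and 1.36 in the deletion, where the groups again nearly touched. For eL36 the ratio of rpl3601 to rpl3602 (-0.11, SE 0.05, adjusted p = 0.066) was 2.88, 3.17 and 2.92 in WT and 2.57, 2.62 and 2.57 in the deletion.

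Over all 35 pairs the ratio of the copy with more WT counts to the other fell in 25 and rose in 10. Among the 14 pairs without overlap it fell in 11 and rose in 3, a like division. One rise was rpl1602 over rpl1601, the main uL13 copies, at 1.40, 1.31 and 1.26 in WT and 1.55, 1.46 and 1.52 in the deletion. Of these rpl1601 fell (-0.13, SE 0.04, adjusted p = 0.024) and rpl1602 did not pass (0.06, SE 0.05). Another was rpl1202 over rpl1201, which encode the same uL11 protein and share most of their sequence, at 6.98, 6.15 and 6.11 in WT and 7.47, 7.29 and 7.53 in the deletion. The third was rpl803 over rpl802. In the uL3 pair rpl301 over rpl302 shifted by -0.15, and these copies share 66.8% and 56.1% of their 50-base stretches with other places. With the copies of each family summed, 30 of the 43 families were lower and none was higher (median -0.17). Without summing, 24.6% of all tested genes were lower.

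Promoters are shown for 4 of these pairs and for rpl8, the member with the highest level per kb. In each pair shown the copies differ in the exact motif matches they carry, as they do in other pairs that are not shown. Each line gives the 120 bases upstream of the annotated transcript start on the gene's own strand, 5′ to 3′, from RefSeq (assembly ASM294v3), with exact matches to HomolD or HomolE on either strand in capitals.
rpl402 (chromosome II, minus strand): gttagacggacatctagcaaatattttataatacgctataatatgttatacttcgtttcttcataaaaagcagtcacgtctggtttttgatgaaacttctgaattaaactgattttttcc
rpl401 (chromosome II, plus strand): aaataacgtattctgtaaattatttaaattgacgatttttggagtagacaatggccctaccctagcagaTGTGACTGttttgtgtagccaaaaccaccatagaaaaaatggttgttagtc
rpl3802 (chromosome I, minus strand): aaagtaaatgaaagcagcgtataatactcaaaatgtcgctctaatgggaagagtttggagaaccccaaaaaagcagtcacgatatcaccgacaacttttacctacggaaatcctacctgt
rpl3801 (chromosome II, plus strand): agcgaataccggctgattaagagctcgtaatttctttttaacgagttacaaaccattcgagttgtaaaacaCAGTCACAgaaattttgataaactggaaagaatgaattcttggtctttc
rpl101 (chromosome III, minus strand): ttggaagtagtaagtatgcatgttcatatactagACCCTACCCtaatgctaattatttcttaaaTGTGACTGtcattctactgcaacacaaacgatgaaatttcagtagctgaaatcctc
rpl102 (chromosome II, plus strand): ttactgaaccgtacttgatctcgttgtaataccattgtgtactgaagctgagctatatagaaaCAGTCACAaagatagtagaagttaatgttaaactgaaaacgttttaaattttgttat
rpl35a (chromosome III, minus strand): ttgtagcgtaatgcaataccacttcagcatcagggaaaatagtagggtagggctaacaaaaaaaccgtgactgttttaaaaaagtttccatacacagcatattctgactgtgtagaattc
rpl35b (chromosome II, minus strand): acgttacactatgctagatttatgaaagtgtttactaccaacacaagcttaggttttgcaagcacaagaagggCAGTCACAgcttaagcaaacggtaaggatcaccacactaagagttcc
rpl8 (chromosome II, plus strand): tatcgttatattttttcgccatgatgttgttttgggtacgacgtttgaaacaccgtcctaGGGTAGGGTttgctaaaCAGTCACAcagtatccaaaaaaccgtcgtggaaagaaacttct
In the uL4, eL38 and eL33 pairs the copy whose share of the counts was lower in the deletion (rpl402, rpl3802 and rpl35a) has no exact HomolD match in this window and the other copy has one. However, rpl402 and rpl3802 hold cagtcacg, and rpl35a holds its reverse complement cgtgactg. This differs from HomolD only in the last letter, so these copies cannot be said to lack the box. In the uL1 pair both have HomolD and only rpl101 has HomolE.

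That pattern did not extend to all pairs. Among pairs without overlap that are not shown, rpl1602 over rpl1601 and rpl803 over rpl802 shifted as in it. In rpl301 over rpl302 (-0.15) and rpl2701 over rpl2702 (-0.13) the copy with the exact HomolD match was the one that fell against the other. One copy alone held an exact HomolD match in 17 of the 35 pairs. In 10 of these the copy with the match had the higher log2 fold change, while in 9 it had the higher level per kb. Within 250 bases upstream, an exact HomolD match (CAGTCACA or its reverse complement) was present in 50 of the 76 members (65.8%). The same held for 61.8% of 55 small subunit genes and for 2.62% of all 5113 protein-coding genes, these 2 groups included. In members the 5′ end of the nearest match lay 16 to 148 bases upstream of the transcript start, with a median of 49.5. In 48 of the 50 members it lay between 40 and 80 bases. The match read in the direction of the gene in 36 members and against it in 14. The match 148 bases upstream of rpl902 is the same site as that 63 bases upstream of rpl35, on the opposite strand, and was counted for both. HomolE (ACCCTACCC or its reverse complement) was present in 19 members (25%), in 38.2% of the small subunit genes and in 1.27% of all, at 60 to 86 bases, and 13 members had both motifs. Of members with an exact HomolD match 34 of 50 were lower (median -0.18), and of those without one 18 of 26 (median -0.14). Boxes that differ from HomolD in a letter were counted as absent. With HomolE 11 of 19 were lower and without it 41 of 57. A match is a stretch of letters and no measurement of binding.

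**Figure D5:**
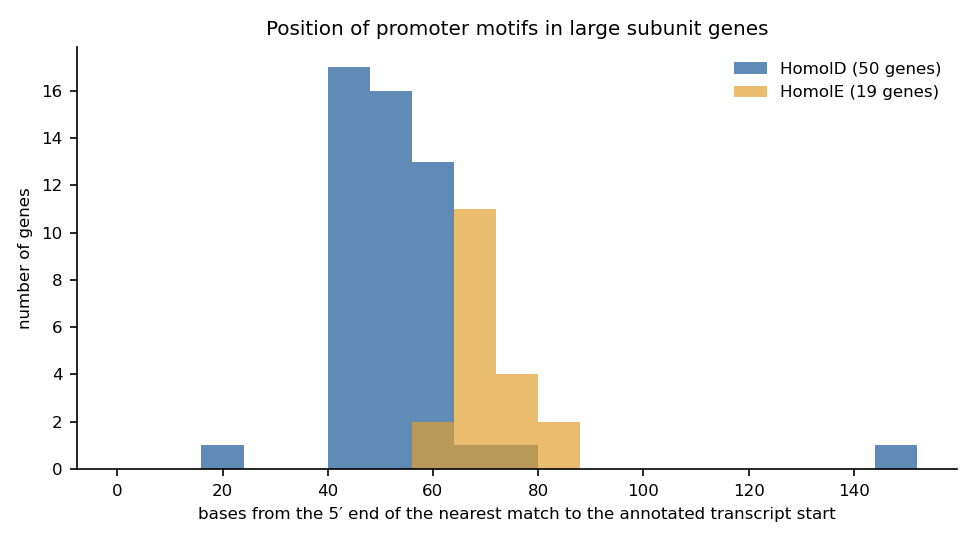
Number of genes (vertical axis) by the distance from the 5′ end of the nearest HomolD or HomolE match to the annotated transcript start (horizontal axis, bases). HomolD matches centre on a median of 49.5 bases and HomolE matches lie from 60 to 86 bases.

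Members with and without an intron gave like counts. Of 37 members with one 25 were lower and of 39 without 27 were, with medians of -0.16 and -0.15. Of the 12 single-copy genes 5 were lower (median -0.11), namely rpl8, rpl14 (which overlaps SPAC1805.10 on the same strand), rpl26, rpl35 and rpl44, and of the 64 genes with a copy 47 were (median -0.17). Single-copy genes that did not pass included rpl6 (-0.11, SE 0.05), rpl13 (-0.10, SE 0.05) and rpl22 (-0.08, SE 0.04), the last of which was higher with cyclic loess. Of the 70 members with under 10% repeated sequence 48 were lower. Over the 76 members the log2 fold change had a Spearman rho of 0.18 with transcript length and of -0.21 with GC content.

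The shortest transcripts varied most between libraries. In 9 of the 10 members with transcripts under 400 bases deletion replicate 3 was the highest of the deletion libraries, against 22 of the 66 longer members. The gene rpl29, for the small protein eL29, measured 559, 587 and 597 CPM in WT and 504, 597 and 743 CPM in the deletion, so deletion replicate 3 lay well above WT and deletion replicate 2 level with the highest WT library. Its change of 0.08 (SE 0.11) did not pass, and it was called higher when deletion replicate 1 was left out. The tunnel protein gene rpl39 had 741, 794 and 820 CPM in WT and 702, 771 and 884 CPM in the deletion. Relative to the mean of the other deletion libraries, replicate 3 stood at a median log2 value of 0.23 for short members and 0.00 for the longer ones, and its rho with length was -0.45 over members and -0.34 over tested protein-coding genes. The part of transcript length in the members' calls was not tested. Of the 10 short members 5 were lower, also without that library.

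Antisense RNAs named after members were rare and rested mostly on 1 library. The table lists 7 of them, of which 5 were tested. Their summed counts were 1548, 193 and 195 in WT and 201, 366 and 181 in the deletion, and all 7 were highest in WT replicate 1. All 635 antisense RNAs of the table together took 0.57% of the counts in that library and 0.48% to 0.53% in the others. The antisense RNA of rpl102, rpl102-antisense-1, had 112, 22 and 31 counts in WT and 12, 24 and 8 in the deletion and was called lower (-2.08, SE 0.66, adjusted p = 0.024). Its groups overlapped, and without WT replicate 1 it did not pass (-0.98, adjusted p = 0.084), nor did any of the other tested ones. The most abundant, rpl20-antisense-1, had 430, 99 and 82 counts in WT and 127, 179 and 88 in the deletion (-0.81, SE 0.58, adjusted p = 0.26). For rpl902-antisense-1 the counts were 255, 42 and 35 in WT and 39, 63 and 42 in the deletion, and for rpl1801-antisense-1 they were 190, 5 and 17 in WT and 6, 20 and 4 in the deletion. Those of rpl1002-antisense-1 were 228, 14 and 18 in WT and 13, 38 and 23 in the deletion, those of rpl2001-antisense-1 were 201, 5 and 4 in WT and 3, 26 and 8 in the deletion, and those of rpl2702-antisense-1 were 132, 6 and 8 in WT and 1, 16 and 8 in the deletion. In each case WT replicate 1 stood above all other libraries, and the other WT libraries lay within or near the range of the deletion. Deletion replicate 2 was the highest deletion library for all 7, with a sum of 366 against 201 and 181. It remains in the values without WT replicate 1.

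Small subunit protein genes gave shares close to those of the large subunit: 37 of 55 were lower (67.3%) and 3 higher (5.5%), with a median of -0.20. With cyclic loess 13 were lower (23.6%) and 8 higher (14.5%). Over all tested genes 24.6% were lower and 28.8% higher, or 23.9% and 21.8% with cyclic loess. Small subunit genes with the smallest adjusted p values were rps21 (-0.32, SE 0.04) and rps27 (-0.33, SE 0.04). Of 8 further large subunit genes outside the naming rule, those of the acidic stalk and the ubiquitin fusions, 4 were lower and none higher (median -0.10), and with cyclic loess none was called. They were ubi1 (-0.20, SE 0.05), which encodes ubiquitin fused to a ribosomal protein, rpp0 (-0.16, SE 0.05), the scaffold of the stalk, and the stalk proteins rpp201 and rpp202. The name pattern for the stalk also caught 3 RNase P genes, of which rpp21 was higher (0.29, SE 0.07).

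Genes that act with these proteins moved in both directions, as did all tested genes. Of the latter 28.8% were higher and 24.6% lower, or 21.8% and 23.9% with cyclic loess. Among 40 assembly factors of the large subunit 20 were higher (50%) and 12 lower (30%), with a median of 0.16. The share lower was near that of all tested genes. With cyclic loess 18 assembly factors were higher (45%) and 3 lower (7.5%). Those with the smallest adjusted p were dbp10, a helicase of large subunit assembly (0.45, SE 0.05), and ria1, a GTPase of the last assembly steps (0.60, SE 0.06). The gene tif6, named after its value was seen, codes for the factor that the counterpart of ria1 helps to release in budding yeast, and it fell by 0.41 (SE 0.05). Of 27 mitochondrial large subunit genes 10 were higher (37.0%) and 4 lower (14.8%), with a median of 0.09, led by mrpl23 (0.54, SE 0.09) and mrpl3 (0.51, SE 0.09). With cyclic loess 7 were higher (25.9%) and 8 lower (29.6%), with a median of -0.09. The shares called higher lay near those of all tested protein-coding genes. Of 4 chaperone and import genes sqt1 was higher (0.16, SE 0.04) and kap123 (-0.18, SE 0.06) and rrb1 (-0.19, SE 0.06) were lower, and with cyclic loess 1 of them was higher and 1 lower. Of 5 regulators of ribosomal protein gene transcription, rrn7 (0.25, SE 0.06), reported to bind the HomolD box in fission yeast, fhl1 and crf1 were higher, tbp1 (-0.27, SE 0.04), the TATA-binding protein, was lower, and sfp1 did not pass. With cyclic loess 2 of these 5 were higher and 1 was lower.

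The authors' deposited table gave 56 members lower and none higher at an adjusted p below 0.05, with a median of -0.17. All 52 members called lower here were among those 56 in the authors' deposited table. The share of all its genes that were lower was not counted.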

How the data were processed

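The authors deposited whole-number read counts per gene, and the files name no library without a label. Per the submitters' processing notes, HISAT2 2.1.0, SAMtools, HTSeq 0.10.0, DESeq2, DESeq and the build ASM294v2 were used, with no role or order given. The authors' deposited comparison holds, per the file headers, mean signal (normalized counts) per group, a log2 fold change with its error, a test score and p-values. It was used for names and set beside the refit.

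From the counts, edgeR 4.0.16 in R 4.3.3 was run on 6045 genes (those kept by filterByExpr at a minimum count of 10), scaled with TMM and fitted by group alone. Its quasi-likelihood test was adjusted by Benjamini-Hochberg over all of them. The SE is the log2 fold change over the square root of F. CPM use TMM-scaled totals. The table has 6987 lines for 6986 genes, since 1 identifier on 2 lines was summed. RefSeq (ASM294v3, 6846 genes matched) gave transcript lengths, proteins, overlaps and promoters. As its build differs from that in the notes, no coordinates are printed. Libraries of a group were not duplicates (chi-square per degree of freedom 5.93 to 12.1). On data simulated for this comparison (6021 genes), 58% of genes changed 1.25-fold were called, 72% at 1.5-fold, 92% at 2-fold and 100% at 4-fold, with 13 of 5821 unchanged genes. Only 200 genes were changed there, whereas 53.3% of tested genes were called in the data. No fold below 1.25 was simulated, so the rates do not cover changes as small as the members' median.

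Families are members with the same product designation and proteins at least 50% identical. Members, lists and structural roles were chosen with earlier results of these data known. Genes named by rule are the 10 lower with the smallest adjusted p, the 3 highest and 3 lowest per kb, both copies of the 8 pairs with the largest non-overlapping shift, the antisense RNAs and the 2 of each other list with the smallest adjusted p, and any further member was chosen once its values had been seen. Figures were drawn with matplotlib 3.10.9.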

Additional observations from a re-analysis of the deposited data

How the results depend on the processing

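Counts of lower members moved from 52 to 11 with cyclic loess, to 32 with library totals and to 31 at an adjusted p below 0.01. Without 1 library they ran from 32 (WT replicate 2 or deletion replicate 2 left out) to 51, where 17.7% to 22.8% of all tested genes were lower. Counts of higher members moved from 0 to 8 with cyclic loess, 4 with GC offsets and 2 with library totals, and without 1 library ran from 0 to 1 (rpl29 without deletion replicate 1, rpl302 without deletion replicate 3). Over all genes an adjusted p below 0.01 left 932 lower and 1152 higher. The share of higher calls was 53.9% as reported, 66.4% with library totals, 47.7% with cyclic loess and 47.4% with GC offsets. With cyclic loess 30 members changed sign, of which 16 were called lower as reported and 4 were called higher with it (none was both), and rpl1201 went to -0.62. Among them were rpl1802 (0.044), rpl402 (0.0014), rpl301 (0.13) and rpl1601 (0.031), and the members' median turned to 0.00063. Without WT replicate 1 the uncalled values of rpl902-antisense-1, rpl20-antisense-1 and rpl1002-antisense-1 turned to 0.19, 0.41 and 0.49. DESeq2 1.42.0 gave 55 lower members, DESeq2 size factors 53, upper quartile 44, limma-voom 52, no filter 48, at least 10 CPM in 3 libraries 53, and protein-coding genes alone 60. In these settings the share of all tested genes called lower ran from 21.5% (no filter) to 27.9% (protein-coding genes alone). The number of pairs of copies whose ratios do not overlap was 14 to 20 without 1 library and 14 with a prior of 0.5 or as a share. Leaving out a library can only keep or raise this number. The share among members of different families (40.9%) was counted with all libraries only, so the rise is no result about copies. The copies summed were an alternative chosen after seeing the data. Replicate numbers do not pair the samples, since deviations of same-numbered samples correlated at -0.13, -0.17 and 0.26 and 2 of 6 samples correlated best with their own number. With the replicate block 48 members were lower, and 1900 genes were higher and 1633 lower. The causes of these shifts were not tested. At least 606 counts per library lie behind every member, and 3 libraries a group limit the precision.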
